A study of Mus musculus with 26 samples.

Results

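The 10 genes described here encode transcription factors and cofactors of blood formation, *Gata1*, *Gata2*, *Zfpm1*, *Tal1*, *Lmo2*, *Klf1*, *Gfi1b*, *Nfe2*, *Bcl11a* and *Myb*. They were chosen by name as the rows of the expression table that carry these symbols, and all 10 were found among 52454 gene symbols in 52609 rows. No expression value entered the choice, but the list was made with earlier results of these data known.

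In the mouse fetus, blood formation takes place chiefly in the liver, where most cells are red cell precursors. GATA1 and KLF1 drive red cell genes such as those for globins, haem synthesis and the membrane skeleton, and GATA1 acts together with the cofactor FOG-1, the product of *Zfpm1*. TAL1 and LMO2 join GATA factors in DNA-bound complexes, GATA2 and MYB are best known in stem and progenitor cells, and GATA2 gives way to GATA1 as red cells mature, a step known as the GATA switch.

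Expression was measured by RNA-seq in 10 libraries, 1 per condition, and is given as FPKM, the fragments of a gene divided by its length and by the size of the library. Whole heart and whole liver came from embryos at E14.5, each with 1 library labelled WT and 1 labelled *Dnmt3a* KO, a knockout of the gene for the de novo DNA methyltransferase DNMT3A. Mouse embryonic fibroblasts (MEFs) from E14.5 embryos, at passage 1, gave 4 libraries, 2 labelled *Dnmt3a* WT and 2 labelled *Dnmt3a* KO, in each case cultured with the solvent DMSO or with GSK126, an inhibitor of the histone methyltransferase EZH2. Heart, liver and MEF libraries are all labelled C57BL6 and male, and the *Dnmt3a* KO embryos came from crosses of heterozygous mice of a mixed B6 and 129S4 line. The 2i-MEFs were fibroblasts from chimeric E14.5 embryos made by injecting female ES cells, F1 (129X1/SvJ and MSM/Ms), into ICR blastocysts. Their *Dnmt3a* or *Dnmt3b* had been deleted in the ES cells with CRISPR/Cas9, and host cells were removed by sorting for GFP and by drug selection, steps that the other MEFs did not pass through. The labels do not say whether a library holds RNA of 1 animal or of several.

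Depth was estimated at 9153299 to 26152750 mapped reads per library, which makes 1 FPKM worth 16.5 to 47.2 reads for a transcript 2000 bases long. All 10 hepatocyte genes were higher in liver than in heart, all 10 cardiomyocyte genes were lower in liver than in heart, and all 10 fibroblast genes were lower in liver and in heart than in MEFs. Of the hepatocyte genes 6 reached 1 FPKM in 2 libraries only through liver, and of the cardiomyocyte genes 5 only through heart, so these had to differ, and the other 4 and 5 differed in the same directions. *Dnmt3a* itself was listed at 53.5 FPKM in WT liver and at 12.7 in the *Dnmt3a* KO liver. In heart the order was the opposite of the labels, since WT had 55.0 FPKM and the library labelled *Dnmt3a* KO had 125. In MEFs it was 26.1 and 19.3 in WT and 85.7 and 84.5 in the libraries labelled *Dnmt3a* KO. Gene-level values do not show which exons the reads came from, so this level does not check the deletion itself, and the results between tissues are given below also without the 3 libraries that go against their labels.

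Promoter sequences were searched for the recognition letters of several of these factors. Of the 10 genes, 8 had a promoter in the RefSeq table for GRCm38.p6, with 10 promoters in all, and *Lmo2* and *Nfe2* had no entry. The 250 bases before each start were searched on both strands for the GATA site. It was spelled AGATAA with A or G as its last base and A or T as its first. The string CACACCC, a form of the CACC box that KLF1 binds, was searched as well. Further strings were CAGCTG, a form of the E-box, and TGAGTCA, a site of AP-1 and NF-E2 type factors. Other forms of the E-box were not searched. A GATA site was found in 3 of the 10 promoters, those of *Tal1*, *Klf1* and *Gfi1b*, against 26.5% of all 32851 promoters in the table. CACACCC was found in 2, those of *Klf1* and *Gata1*, against 6.93% of all promoters. CAGCTG, found in 13.0% of all promoters, and TGAGTCA, found in 4.46%, were in none of these windows, which says only that the letters are absent there. The 4 promoters with a match are printed 5′ to 3′ on the strand of the gene, with the matches in capitals, because they show where the recognition letters of these factors lie in the genes for the factors themselves. A match is a string of letters, not a measured binding site. In *Tal1* and *Klf1* the GATA site is read on the other strand and appears as its complement. The *Klf1* sequence was ended at base 84901927, before its annotated first exon, and each of the other 3 ends at the base before an annotated first exon.

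Tal1, chr4:115056176-115056425, plus strand: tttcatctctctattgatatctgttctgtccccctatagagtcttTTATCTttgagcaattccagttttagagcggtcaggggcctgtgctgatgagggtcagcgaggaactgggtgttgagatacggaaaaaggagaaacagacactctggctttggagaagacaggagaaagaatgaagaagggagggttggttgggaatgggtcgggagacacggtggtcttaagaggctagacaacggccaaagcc

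Klf1, chr8:84901732-84901927, plus strand: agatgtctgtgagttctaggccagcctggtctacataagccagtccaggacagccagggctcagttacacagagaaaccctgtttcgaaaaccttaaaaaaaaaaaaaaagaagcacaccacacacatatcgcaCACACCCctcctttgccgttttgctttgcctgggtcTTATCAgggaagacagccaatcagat

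Gfi1b, chr2:28621983-28622232, minus strand: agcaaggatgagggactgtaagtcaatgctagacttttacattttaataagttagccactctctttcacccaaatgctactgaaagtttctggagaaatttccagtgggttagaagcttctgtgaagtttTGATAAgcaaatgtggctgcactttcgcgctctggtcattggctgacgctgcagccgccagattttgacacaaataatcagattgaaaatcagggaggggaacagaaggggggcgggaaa

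Gata1, chrX:7967911-7968160, minus strand: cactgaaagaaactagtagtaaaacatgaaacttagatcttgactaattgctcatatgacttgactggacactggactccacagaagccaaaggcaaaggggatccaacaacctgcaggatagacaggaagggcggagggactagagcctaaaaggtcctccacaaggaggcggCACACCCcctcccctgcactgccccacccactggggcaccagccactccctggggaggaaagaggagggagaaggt

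Distances were counted from the RefSeq start, which for *Klf1* lies downstream of the end of the printed sequence. The GATA site began 205 bases before the start of *Tal1*, 80 bases before that of *Klf1* and 120 bases before that of *Gfi1b*. CACACCC began 116 bases before the start of *Klf1* and 76 bases before that of *Gata1*, so *Klf1* alone held both. Base composition ranged widely among the 10 promoters, from 44.4% G and C in *Gfi1b* to 81.2% in *Myb*, around a median of 52.4% over all promoters.

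Both liver libraries lay above all others for 9 of the 10 factors, where 25.5% of all genes tested had this order, and in the same 9 both heart libraries also lay above all fibroblasts, where 9.83% of all genes had both. The filter that defines these genes is given with the tests, and *Gata1*, *Gfi1b* and *Myb* passed it only through liver. The order among the 10 factors was the same in both liver libraries. *Klf1* stood first, followed by *Zfpm1*, *Nfe2*, *Lmo2*, *Gata1*, *Tal1*, *Gfi1b*, *Bcl11a*, *Myb* and *Gata2*. *Klf1* ranked 257th and 265th among all genes in the 2 libraries, *Zfpm1* ranked 275th and 293rd, and *Gata2* stood at rank 8704 and 8717. Summed over the 10 factors, liver had 1967 and 1839 FPKM, heart 144 and 143, MEFs 44.4 to 69.7 and 2i-MEFs 30.1 to 44.3. FPKM is a level per length, so genes can be set side by side within a library. In whole tissue, fewer cells of a type and less RNA per cell cannot be told apart.

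**Figure D1:**
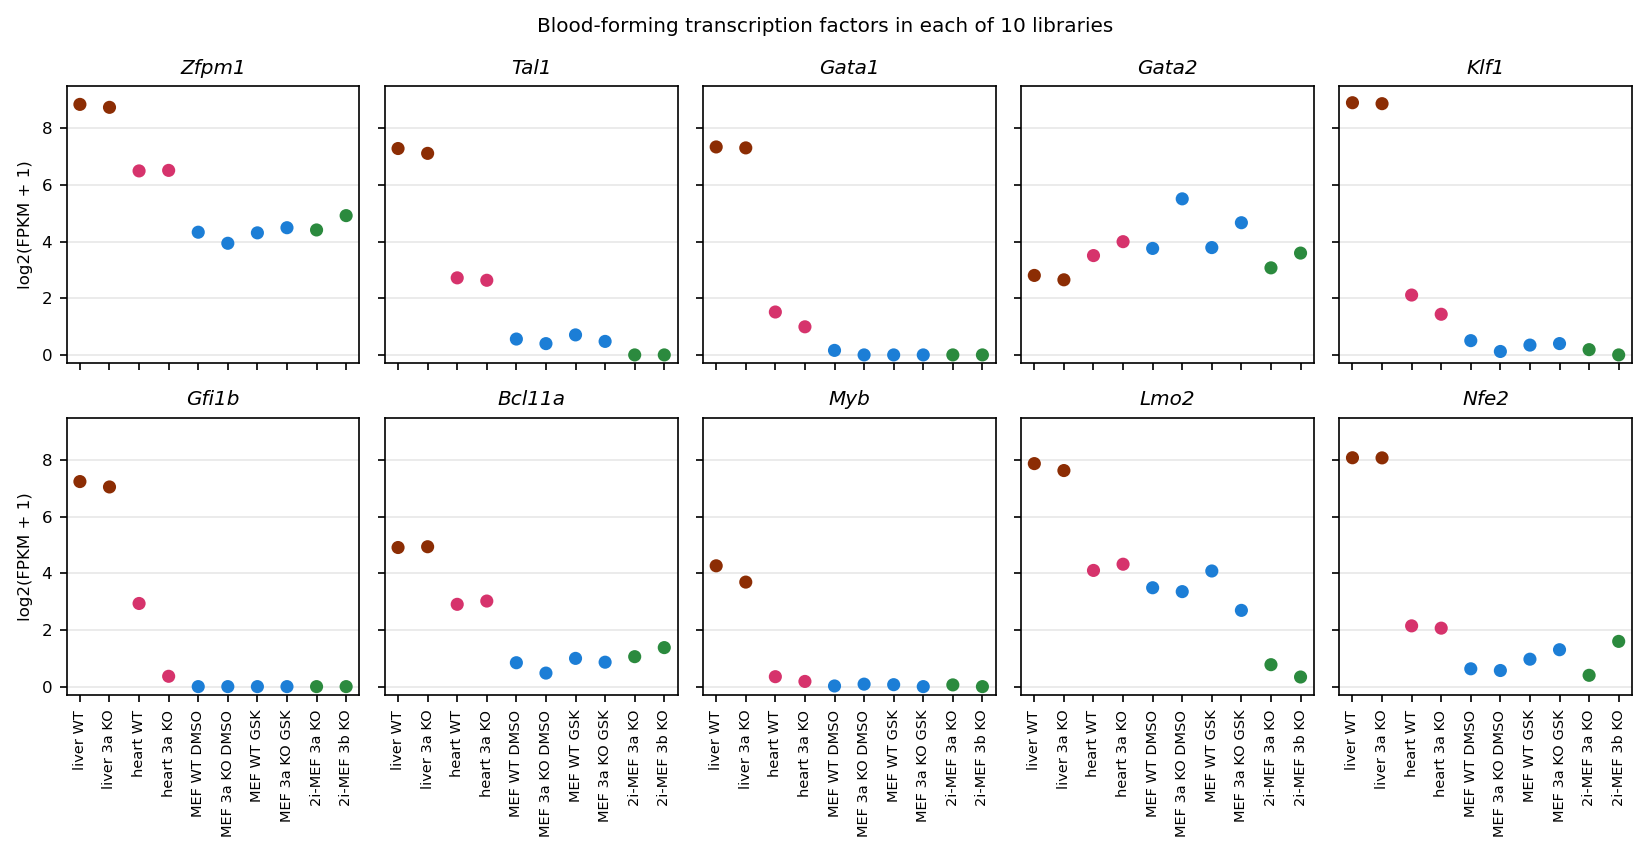
Level of each factor in the 10 libraries, as log2(FPKM + 1) on the vertical axis, 1 panel per gene and 1 point per library (liver brown, heart pink, MEFs blue, 2i-MEFs green). In 9 panels both liver points lie above all others, and heart lies between liver and fibroblasts in the same 9. In the panel of *Gata2* both liver points lie below all others.

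*Gata1* (ENSMUSG00000031162.14, chrX:7959260-7978071 in mm10, minus strand), the GATA factor of red cells and megakaryocytes, was at 162 FPKM in WT liver and 158 in *Dnmt3a* KO liver. The heart libraries had 1.86 (WT) and 0.990 (labelled *Dnmt3a* KO). Among the fibroblasts it was listed at 0.117 in WT MEFs with DMSO, which is at most 4 reads, and at 0 in the other 5 libraries. The tissues did not overlap, and the liver mean was 112 times the heart mean. *Gata2* (ENSMUSG00000015053.14, chr6:88193891-88207032, plus strand), which acts in stem and progenitor cells, mast cells and endothelium, was lowest in liver. It was at 6.004 and 5.29 FPKM in WT and *Dnmt3a* KO liver, at 10.4 and 15.01 in heart, and at 7.43 and 11.1 in *Dnmt3a* KO and *Dnmt3b* KO 2i-MEFs. In MEFs it was at 12.6 and 12.9 in WT with DMSO and GSK126, and at 44.7 and 24.5 in the corresponding libraries labelled *Dnmt3a* KO. Every other library was above both liver libraries, and heart overlapped with both kinds of fibroblast. Within a library, *Gata1* exceeded *Gata2* 27.0-fold and 29.9-fold in liver, and *Gata1* was 0.179 and 0.0660 of *Gata2* in heart.

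*Zfpm1* (ENSMUSG00000049577.15, chr8:122282141-122337251, plus strand), whose product FOG-1 binds GATA1, was at 461 and 428 FPKM in WT and *Dnmt3a* KO liver. It was at 89.5 and 90.7 in heart, at 14.4 to 21.5 in MEFs and at 20.3 and 29.3 in 2i-MEFs. No other of the 10 factors was as high in heart, where *Zfpm1* made up 62.3% and 63.3% of their summed level against 23.4% and 23.3% in liver. The annotation places the protein-coding gene *Gm20388* over *Zfpm1* on the same strand, so reads could be split between them. *Gm20388* was at 19.98 and 20.9 FPKM in liver, 31.3 and 32.6 in heart, and 32.5 to 46.8 in fibroblasts, an order opposite to that of *Zfpm1*, and its part in the fibroblast level of *Zfpm1* was not tested. *Zfpm2*, the gene for the related cofactor FOG-2 of the heart, was at 0.791 and 0.586 FPKM in liver and at 6.69 and 5.75 in heart. The level of *Zfpm1* was 582 and 731 times that of *Zfpm2* in liver, 13.4 and 15.8 times in heart and 2.56 to 4.11 times in fibroblasts, so *Zfpm1* was the higher of the pair in every library.

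*Tal1* (ENSMUSG00000028717.12, chr4:115056426-115071755, plus strand), a basic helix-loop-helix factor, was at 156 and 138 FPKM in WT and *Dnmt3a* KO liver and at 5.60 and 5.22 in heart. MEFs had 0.319 to 0.633, and both 2i-MEF libraries were listed at 0. The 4 kinds of sample did not overlap. *Lmo2* (ENSMUSG00000032698.15, chr2:103957986-103981878, plus strand), whose product bridges TAL1 and GATA factors, was at 234 and 198 in liver, 16.2 and 19.0 in heart, 5.47 to 15.97 in MEFs and 0.711 and 0.265 in 2i-MEFs. Heart lay above all MEF libraries by a small gap, 16.20 against 15.97 at the nearest pair. *Gfi1b* (ENSMUSG00000026815.14, chr2:28609450-28621982, minus strand), a repressor of red cell and megakaryocyte precursors, was at 151 and 132 in liver and listed at 0 in all 6 fibroblast libraries. Its heart libraries differed, since WT had 6.66 FPKM, which is 5 to 205 reads depending on the transcript, and the other, labelled *Dnmt3a* KO, had 0.287, which is at most 7 reads.

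*Klf1* (ENSMUSG00000054191.8, chr8:84901928-84905291, plus strand), the Krüppel-like factor of red cells, was at 480 and 469 FPKM in WT and *Dnmt3a* KO liver. The WT heart had 3.33 and the other heart library 1.71, which is 84 and 35 reads on the only annotated transcript. Fibroblasts had at most 0.418, or 10 reads. Liver exceeded heart 188-fold in the mean, 144-fold between the WT libraries and 275-fold between those labelled *Dnmt3a* KO. The ratio of the means was the largest of the 10, but in the pair labelled *Dnmt3a* KO that of *Gfi1b* was larger, at 459-fold. *Nfe2* (ENSMUSG00000058794.12, chr15:103248212-103258403, minus strand), the large subunit of NF-E2 in megakaryocytes and red cells, was at 271 and 270 in liver, 3.43 and 3.19 in heart, 0.483 to 1.47 in MEFs, and 0.319 and 2.03 in *Dnmt3a* KO and *Dnmt3b* KO 2i-MEFs. The liver and heart libraries each lay close together, and the fibroblasts were spread over a wider range in proportion to their level.

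*Bcl11a* (ENSMUSG00000000861.15, chr11:24078056-24174123, plus strand), known for silencing fetal globin genes and for its role in B cells and neurons, was at 29.1 and 29.7 FPKM in liver and 6.50 and 7.13 in heart. MEFs had 0.392 to 0.996 and 2i-MEFs 1.08 and 1.60, so both 2i-MEF libraries were above every MEF library, which held for no other of the 10 factors. *Myb* (ENSMUSG00000019982.15, chr10:21124935-21160984, minus strand), which is needed in definitive progenitors and falls as red cells mature, was at 18.3 in WT and 11.9 in *Dnmt3a* KO liver. It was at 0.275 and 0.135 in heart, at most 18 and 7 reads, and at 0 to 0.0624 in the fibroblasts. Genes on the opposite strand of *Bcl11a*, *Lmo2* and *Myb* were listed at no more than 1.88 FPKM in any library.

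Which factors distinguish liver from heart was tested with limma on log2(FPKM + 1), across 15643 genes with at least 1 FPKM in at least 2 libraries. A gene was called at an adjusted p (Benjamini-Hochberg) under 0.05 and a difference of at least 2-fold. The spread that these p-values rest on was estimated over all 10 libraries with 1 mean per tissue, so the fibroblast libraries entered it too. It holds differences in genotype label, in the deleted gene of 2i-MEFs and in the GSK126 treatment of MEFs. It also holds the difference between samples, which may in part be technical. All 10 factors passed the filter, but 3 of them, *Gata1*, *Gfi1b* and *Myb*, reached 1 FPKM in fewer than 2 libraries outside liver, so they passed only through the tissue where they are high and had to differ. Their calls are given as values and support nothing. In liver against heart, 9 of 10 were higher in liver, where 17.1% of all genes tested were called higher, and 0 were lower, where 18.8% of all genes were called lower. Among the 7 factors that pass the filter without liver, 6 were called higher. Over the 10 factors, those 3 included, the median difference was 4.12 on the log2 scale, against 0.01 over all genes tested.

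The largest liver-minus-heart difference among the 10 factors was that of *Klf1*, 7.12 ± 0.24 (SE) on the log2(FPKM + 1) scale, with an adjusted p of 6.12e-08 in limma. *Gata1* followed with 6.08 ± 0.19 (adjusted p = 4.62e-08), *Nfe2* with 5.98 ± 0.38 (adjusted p = 2.35e-06) and *Gfi1b* with 5.50 ± 0.63 (adjusted p = 9.66e-05). *Tal1* differed by 4.53 ± 0.16, *Myb* by 3.71 ± 0.19 and *Lmo2* by 3.54 ± 0.38. The pseudocount of 1 lowers the difference of a gene that is near 0 in heart, and with 0.1 *Myb* had 5.64, above *Tal1* at 4.74, and *Gfi1b* had 6.45, above *Nfe2* at 6.31. The smallest called differences were those of *Zfpm1*, 2.29 ± 0.20 (adjusted p = 1.83e-05), and *Bcl11a*, 1.96 ± 0.21 (adjusted p = 5.42e-05). *Gata2* had −1.02 ± 0.53 and was not called (adjusted p = 0.133). Its call turned on 1 library, because without the MEF library labelled *Dnmt3a* KO with DMSO the same difference had an adjusted p of 0.0348 in limma. Without the 3 libraries whose *Dnmt3a* level goes against the label, a choice made after seeing the data, the same 9 factors were higher, and the difference of *Gfi1b* was 4.21.

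In liver against MEFs, the same 9 factors were higher in liver, where 20.4% of all genes were called higher, and 1, *Gata2*, was lower, where 22.5% of all genes were called lower. *Gata1*, *Gfi1b* and *Myb*, which passed the filter only through liver, had to differ here too. Among the other 7 factors, 6 were higher and 1 was lower. *Klf1* differed by 8.55 ± 0.21, *Gata1* by 7.29 ± 0.16, *Nfe2* by 7.22 ± 0.33, *Gfi1b* by 7.15 ± 0.55 and *Tal1* by 6.67 ± 0.14. *Zfpm1* differed by 4.53 ± 0.17, *Lmo2* by 4.35 ± 0.33, *Bcl11a* by 4.13 ± 0.18 and *Myb* by 3.94 ± 0.16. The values of genes near 0 in MEFs depend on the pseudocount of 1 and understate the ratio, and with 0.1 *Myb* had 6.84 and *Klf1*, *Gata1* and *Gfi1b* lay between 10.36 and 10.46. *Gata2* differed by −1.70 ± 0.46 (limma, adjusted p = 0.00959), and without the *Dnmt3a* KO liver library it was no longer called (adjusted p = 0.0591). Without the 3 libraries whose *Dnmt3a* level goes against the label, 9 factors were higher and 1 lower, and *Gata2* had −1.05, just past 2-fold (adjusted p = 0.00713).

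In heart against MEFs, 7 of 10 factors were higher in heart, where 14.51% of all genes were called higher, and 0 were lower, where 15.7% were called lower. *Zfpm1* differed by 2.24 ± 0.17, *Bcl11a* by 2.17 ± 0.18, *Tal1* by 2.14 ± 0.14, *Klf1* by 1.43 ± 0.21 and *Gata1* by 1.21 ± 0.16. *Gfi1b*, with 1.65 ± 0.55 (limma, adjusted p = 0.0304), and *Nfe2*, with 1.24 ± 0.33 (adjusted p = 0.0105), had the highest adjusted p-values among the 7. With a pseudocount of 0.1 the differences of *Tal1*, *Klf1*, *Gata1*, *Gfi1b* and *Nfe2* were 3.34, 2.83, 3.59, 4.02 and 1.94. That of *Bcl11a*, under 1 FPKM in all MEF libraries, was 3.08, and that of *Zfpm1* was 2.29. *Lmo2* (0.81 ± 0.33, adjusted p = 0.0627), *Myb* (0.22 ± 0.16, adjusted p = 0.282) and *Gata2* (−0.68 ± 0.46, adjusted p = 0.244) were not called. The WT heart library carried 3 of the 7 calls: without it 4 factors were called, *Gata1* fell short of 2-fold at 0.95, *Gfi1b* had 0.36 (adjusted p = 0.122) and *Nfe2* had an adjusted p of 0.0661. In the same library *Alb*, a hepatocyte gene, was at 12.7 FPKM against 3.04 in the other heart, and the part of liver RNA in these calls was not tested. *Gfi1b* also lost its call without any single MEF library, with adjusted p-values of 0.0525 to 0.0541. *Nfe2* was also not called without the heart labelled *Dnmt3a* KO (adjusted p = 0.0528) or without the 3 libraries whose *Dnmt3a* level goes against the label (adjusted p = 0.0791), where 6 factors were called in all. *Lmo2* was called without WT MEFs with GSK126 (1.03, adjusted p = 0.0111). The 3 comparisons share libraries and are not independent of each other.

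**Figure D2:**
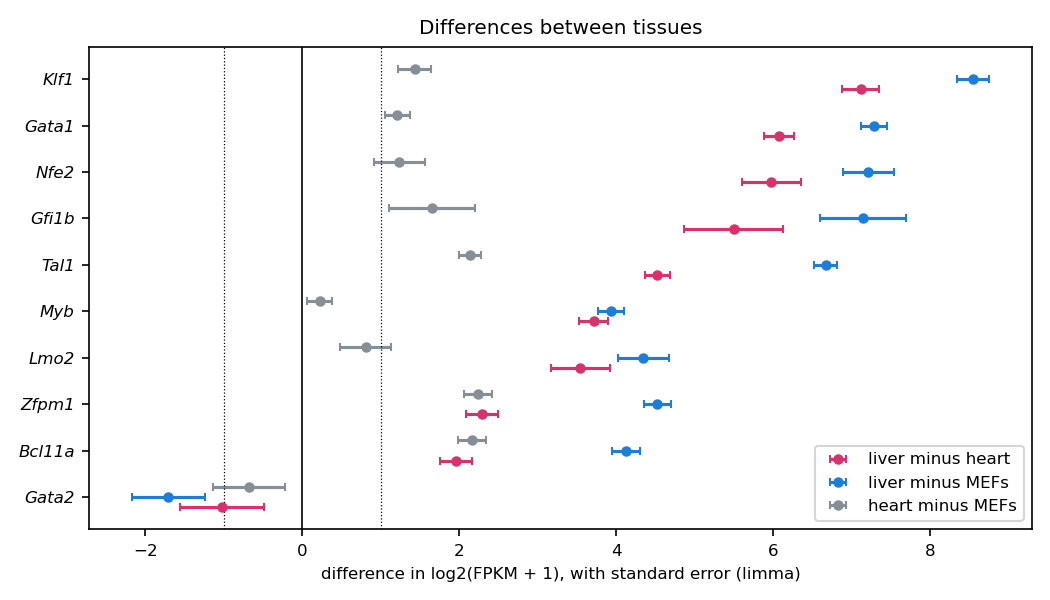
Fitted differences in log2(FPKM + 1) between tissues for each factor, with standard errors from limma on the horizontal axis (liver minus heart pink, liver minus MEFs blue, heart minus MEFs grey), the solid line at 0 and dotted lines at 2-fold. The differences of liver from heart run from 7.12 for *Klf1* to −1.02 for *Gata2*. On this scale *Zfpm1* and *Bcl11a* differ about as much between heart and MEFs as between liver and heart. In mean FPKM, without the pseudocount, this holds for *Zfpm1* (4.87-fold and 4.93-fold) but not for *Bcl11a* (9.08-fold and 4.32-fold).

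The 10 factors did not keep 1 ratio between heart and liver. As a percentage of the liver mean, the heart mean was 0.531% for *Klf1*, 0.891% for *Gata1*, 1.22% for *Nfe2* and 1.36% for *Myb*. It was 2.46% for *Gfi1b*, 3.68% for *Tal1* and 8.16% for *Lmo2*, and reached 20.3% for *Zfpm1*, 23.1% for *Bcl11a* and 225% for *Gata2*. These percentages are descriptions, each from 2 libraries per tissue. That of *Gfi1b* turned on the heart library, at 4.72% from WT heart and 0.204% from the heart labelled *Dnmt3a* KO, and that of *Myb* was 1.82% and 0.896%.

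Red cell genes and vessel genes were set beside them. Of 20 erythroid genes listed, 19 were found, and all 19 were higher in liver than in heart, with a median difference of 5.30 on the log2 scale. Among them *Hemgn*, *Rhag*, *Ermap* and *Cldn13* passed the filter only through liver and had to differ, and the other 15 were all higher too. In heart against MEFs 16 of 19 were higher and 1 lower in heart. Their heart means ran from 0.417% (*Hemgn*) to 28.8% (*Ank1*) of the liver means, with a median of 2.05%. Their summed level was 6749 to 6930 FPKM in liver, 239 to 354 in heart, 12.1 to 19.2 in MEFs and 18.1 to 20.6 in 2i-MEFs, and none was at 0 in both heart libraries. *Slc4a1*, the red cell anion exchanger, was at 50.9 and 28.9 FPKM in heart, and *Alas2*, the first enzyme of haem synthesis in red cells, at 191 and 128. Of 12 megakaryocyte genes, 11 were higher in liver than in heart, with a median heart level of 10.9% of liver. Leaving aside 3 that passed the filter only through liver, 8 of 9 were higher.

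Of 12 endothelial genes, 8 were lower and 1, *Egfl7*, was higher in liver than in heart, all 12 were higher in heart than in MEFs, and the median heart level was 285% of liver. Their sum was 208 to 231 FPKM in liver, 512 to 515 in heart and 12.4 to 19.3 in MEFs. *Klf1*, *Gata1*, *Nfe2* and *Myb* thus lay within the range of the erythroid genes and below their median, *Gfi1b*, *Tal1* and *Lmo2* lay above that median and within the range, *Zfpm1* and *Bcl11a* lay near its top and close to the myeloid median of 25.7%, and *Gata2* lay above it. Its 225% was within the range of the endothelial genes and also between the fibroblast genes *Dcn*, at 208%, and *Col3a1*, at 291%. The progenitor genes *Procr* and *Cd34* had 320% and 369%. However, the 7 progenitor genes with a liver mean of at least 1 FPKM ran from 0% to 473%, with a median of 39.7%. What part blood in the heart and its vessels had in the heart levels was not tested.

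**Figure D3:**
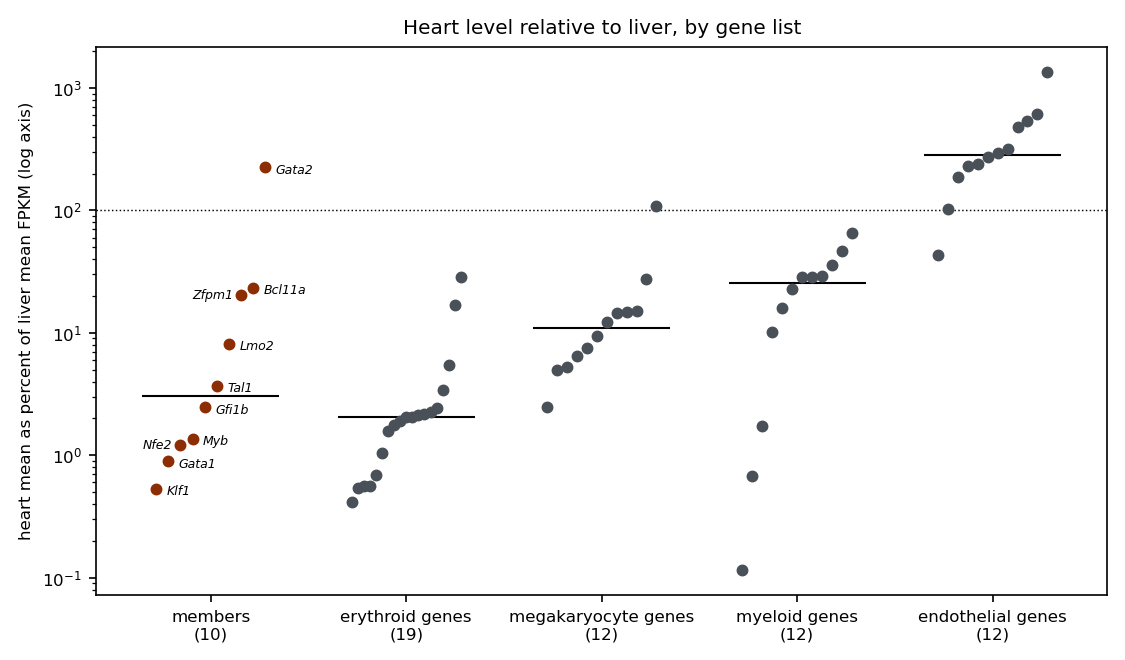
Heart mean as a percentage of the liver mean FPKM on a log axis, 1 point per gene, for the 10 factors and for the erythroid, megakaryocyte, myeloid and endothelial gene lists, with horizontal bars at the medians and a dotted line at equal levels. The medians of the lists are 2.05% for erythroid, 10.9% for megakaryocyte, 25.7% for myeloid and 285% for endothelial genes, and the factors are spread from 0.531% to 225%.

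Genes for proteins that work with these factors were described in the same way. Of 18 complex partners, 8 were higher in liver than in heart and 0 were lower, with a median difference of 0.91. *Lyl1*, the closest relative of *Tal1*, had 103 and 97.6 FPKM in liver against 13.5 and 14.99 in heart (2.73 ± 0.27). The small Maf genes *Mafg* and *Mafk*, whose products pair with NF-E2, were higher by 2.31 and 1.88, *Sox6* by 2.28, *Runx1* by 2.02 and *Zbtb7a* by 1.97. *Ldb1*, the scaffold of the TAL1 and LMO2 complex, was between 72.0 and 111 FPKM in every library and was not called. *Kdm1a*, a demethylase recruited by GFI1B, was between 34.3 and 58.6. Against MEFs, 5 partners were higher and 2 lower in liver. *Cbfa2t3*, a corepressor partner of TAL1, was at 10.2 and 8.12 FPKM in liver, 12.6 and 6.89 in heart and at most 0.684 in fibroblasts.

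Close relatives of the 10 factors divided the tissues differently. Of 17 relatives, 16 were tested, and in liver against heart 3 were higher and 7 lower. *Gfi1* passed the filter only through liver and had to differ, and of the other 15 relatives 2 were higher and 7 lower. *Gata4*, *Gata5* and *Gata6*, GATA factors of heart and gut, were lower in liver, with −2.90, −2.23 and −2.64 on the log2 scale, and *Gata4* was at 14.8 in both liver libraries and 120 and 114 FPKM in heart. *Klf2* and *Klf4*, relatives of *Klf1* known in endothelium and other tissues, were lower in liver than in heart, with −1.99 and −2.44, while *Klf3* was higher by 1.71. *Bcl11b* was at most 0.0709 FPKM in liver and 2.09 and 3.07 in heart, the reverse of *Bcl11a*. *Mybl2*, a cell cycle gene, was at 79.6 and 77.8 in liver and thus above *Myb*, and it was higher than in heart by 2.47. *Gfi1*, the relative of *Gfi1b* in myeloid and lymphoid cells, was at 1.40 and 1.24 in liver and listed at 0 in heart.

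Among 15 other blood factors, 7 were higher and 3 lower in liver than in heart. *Cebpe* passed the filter only through liver and had to differ, and of the other 14 factors 6 were higher and 3 lower. *Ikzf1*, the Ikaros gene, was at 106 and 87.4 FPKM in liver and 1.18 and 0.339 in heart, a difference of 5.83 ± 0.35. *E2f2*, a cell cycle factor of red cell precursors, was at 141 and 188 in liver and 6.02 and 4.01 in heart. *Spi1*, which encodes the myeloid factor PU.1, was at 33.6 and 18.7 in liver and 3.19 and 5.97 in heart. *Erg*, *Meis1* and *Mecom* were lower in liver, and *Mecom* was at 0.957 and 1.41 in liver against 11.7 and 11.3 in heart. Stem and progenitor genes were mixed, with 2 of 7 tested higher and 3 lower in liver than in heart. *Spn* passed the filter only through liver and had to differ, and of the other 6 genes 1 was higher and 3 were lower.

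The gene whose profile over the 10 libraries was most like that of a factor was found by the mean absolute difference of centred log2 values, among 15633 other genes. For *Gata1* it was *Add2*, a red cell membrane skeleton gene, at 0.149, and the same gene was nearest to *Gfi1b* at 0.268. For *Klf1* it was *Hemgn*, the red cell gene hemogen, at 0.196. For *Nfe2* it was *Nxpe2* at 0.325, for *Bcl11a* *Exoc6* at 0.190 and for *Lmo2* *Slc16a10* at 0.476. *Myb* was nearest to *C8b*, a complement gene of hepatocytes, at 0.0680, and *Zfpm1* to *Ftcd*, an enzyme of hepatocytes, at 0.175. Unlike *Zfpm1*, *Ftcd* was at most 0.139 FPKM in fibroblasts. *Gata2* was nearest to *Plb1* at 0.179, but *Plb1* was at 0.0139 and 0 FPKM in liver and at most 3.36 in any library. Among the 10 factors themselves, the closest pair was *Zfpm1* and *Bcl11a* at 0.142, nearer than any gene outside the 10 was to either.

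In fibroblasts most of the 10 factors were low, with 3 or 4 of 10 at 1 FPKM or more in each of the 6 libraries. *Zfpm1* and *Gata2* were the only ones above 5 FPKM in all 6. Between MEFs and 2i-MEFs, *Tal1*, *Gata2* and *Lmo2* were higher in every MEF library than in both 2i-MEF libraries, 3 of 10 factors where 21.1% of all genes tested were. *Bcl11a* was higher in both 2i-MEF libraries than in every MEF library, 1 of 10 factors where 22.8% of all genes were. These shares are close to the background, and strain, sex, genotype, origin and sorting differ between the 2 kinds of fibroblast and cannot be told apart. For *Lmo2* the MEF mean was 21.0 times the 2i-MEF mean, and for *Gata2* it was 2.55 times.

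Of 12 myeloid genes, 9 were higher in every MEF library than in both 2i-MEF libraries, as *Lmo2* was, and 3, *Mpo*, *Elane* and *Prtn3*, were not. The 12 myeloid genes summed to 1224 to 1732 FPKM in MEFs and to 16.8 to 26.9 in 2i-MEFs, and *Lyz2*, the lysozyme of macrophages, ran from 638 to 885 in MEFs against 11.5 to 15.996 in 2i-MEFs. In MEFs 2 of the 12, *Mpo* and *Elane*, which mark neutrophil precursors, were at 0 in all libraries. *Spi1* was at 18.3 to 36.6 FPKM in MEFs and at 0.268 and 0 in 2i-MEFs, and *Lyl1* was at 1.24 to 2.99 against 0.114 and 0.136. Within the 4 MEF libraries, *Lmo2* was highest in WT with GSK126, then WT with DMSO, the library labelled *Dnmt3a* KO with DMSO and that with GSK126, at 15.97, 10.3, 9.24 and 5.47 FPKM. The myeloid sum had the same order, at 1732, 1669, 1358 and 1224, but this order rested on *Lyz2*. Without it the other 11 myeloid genes summed to 848, 834, 556 and 586, so that the last 2 libraries changed places. Between GSK126 and DMSO the median of the 9 myeloid genes with at least 1 FPKM was −0.09 in WT MEFs and 0.05 in those labelled *Dnmt3a* KO, where *Lmo2* differed by 0.59 and −0.66 on the same log2(FPKM + 1) scale. Between the genotype labels the median was −0.52 with DMSO and −0.58 with GSK126. The part of such cells in the level of *Lmo2* was not tested. *Gata2* had another order. The 8 mast cell genes summed to at most 2.21 FPKM in MEFs, of which *Kit*, also a progenitor gene, had 2.01, and *Fcer1a*, *Tpsb2* and *Mcpt4* were at 0 in all 4. Without *Kit* the other 7 summed to 0.153 and 0.201 in WT MEFs and to 0.505 and 0.649 in those labelled *Dnmt3a* KO, with DMSO and GSK126 in each case. All of these 7 were under 1 FPKM in every MEF library, and at these levels no direction was read from single genes. *Kit* was at 0.820 and 2.01 in WT and at 0.773 and 0.689 in the others. The part of mast cells in the level of *Gata2* was not tested.

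**Figure D4:**
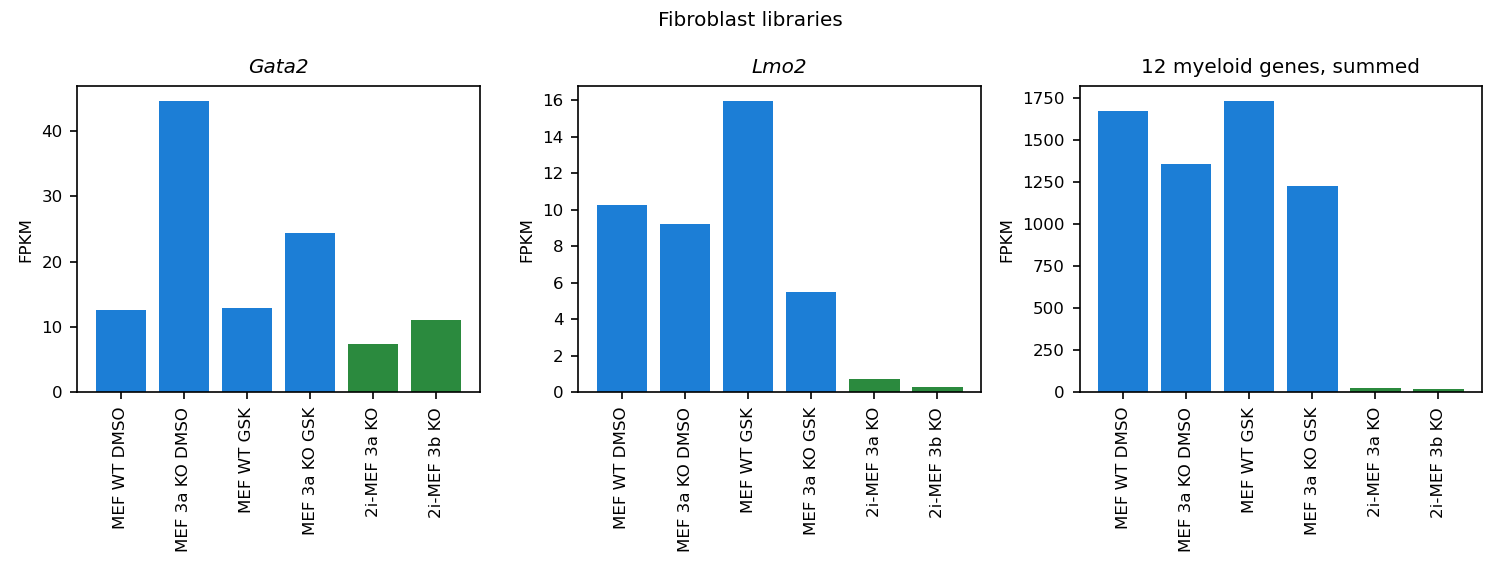
FPKM of *Gata2*, of *Lmo2* and of 12 myeloid genes summed in the 6 fibroblast libraries, 1 bar per library (MEFs blue, 2i-MEFs green). *Lmo2* and the myeloid sum are low in 2i-MEFs and share the order of the 4 MEF bars, which for the myeloid sum rests on *Lyz2*, whereas *Gata2* is highest in the MEFs labelled *Dnmt3a* KO, at 44.7 with DMSO and 24.5 with GSK126.

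Whether the factors differed by genotype label or by treatment was compared between single libraries, so there is no replicate check and no p-value. Genes with at least 1 FPKM in either library were counted when FPKM + 1 differed at least 2-fold. In liver, the *Dnmt3a* KO library had 0 of 10 factors higher, where 1.39% of all genes were, and 0 lower, where 2.3% were. *Myb* had the largest difference, −0.58 on the log2 scale, followed by *Lmo2* with −0.25, and the rest lay between −0.19 and 0.03. All 12 myeloid genes were lower in the same library, from −0.91 to −0.30 with a median of −0.62. The 8 progenitor genes had a median of −0.50, 9 fibroblast genes −0.59, 15 other blood factors −0.28 and 12 megakaryocyte genes −0.25, while the median of the erythroid genes was 0.03. The part of these cells in the value of *Myb* was not tested.

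In heart, the library labelled *Dnmt3a* KO had 0 of 9 factors higher, where 2.18% of all genes were, and 1 lower, *Gfi1b*, where 1.85% were. *Gfi1b* differed by −2.57, *Klf1* by −0.68 and *Gata1* by −0.52, while *Gata2* had 0.49, *Lmo2* 0.22 and *Zfpm1* 0.02. The 19 erythroid genes had a median of −0.57 and a sum of 239 against 354 FPKM in WT, with 2 of them lower past 2-fold and 0 higher, and *Ank1* had 0.002. The endothelial sum was 512 against 515. Of 6 hepatocyte genes with at least 1 FPKM, 5 were lower past 2-fold, with a median of −1.70 over the 6, and *Trf*, the transferrin gene, was at 30.1 FPKM in WT heart and 58.5 in the other. *Alb*, the albumin gene, was at 12.7 FPKM in WT heart and 3.04 in the other, *Afp* at 10.1 and 2.57, and *Apoa1* at 7.08 and 0.777, where liver had 1808 FPKM or more of each. *Mpo*, a myeloid gene high in liver, was at 2.16 and 0.205. It was the only 1 of 9 myeloid genes with at least 1 FPKM that was lower past 2-fold. None of the 9 was higher past 2-fold, and their median was −0.04. The part of red cells and of liver RNA in these values was not tested. In FPKM, *Klf1* was at 0.512 and *Gata1* at 0.533 of WT, and *Gfi1b* at 0.0432.

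In MEFs 3 factors with DMSO and 4 with GSK126 had at least 1 FPKM in either library. With DMSO, the library labelled *Dnmt3a* KO had 1 factor higher, *Gata2*, where 4.24% of all genes were, and 0 lower, where 2.02% were. *Gata2* was 3.56 times as high as in WT, a difference of 1.75 on the log2(FPKM + 1) scale. With GSK126 it was 1.90 times as high, a difference of 0.88, so that 0 factors were higher, where 2.88% of all genes were. In that pair 1 factor, *Lmo2*, was lower, at −1.39, where 2.95% of all genes were lower. In both pairs the library with more *Gata2* was the one labelled *Dnmt3a* KO, each with a *Dnmt3a* level above WT.

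Of the 10 factors, 3 had at least 1 FPKM in either library in the WT pair and 4 in the pair labelled *Dnmt3a* KO, and none of these differed 2-fold in FPKM + 1 between GSK126 and DMSO. In WT MEFs 0 were higher with GSK126, where 2.17% of all genes were, and 0 lower, where 1.59% were, and the largest difference was 0.59 for *Lmo2*. In the MEFs labelled *Dnmt3a* KO 0 were higher, where 2.01% of all genes were, and 0 lower, where 3.25% were, with *Gata2* at −0.84, *Nfe2* at 0.73, *Lmo2* at −0.66 and *Zfpm1* at 0.55. *Lmo2* thus had opposite signs in the MEFs under the 2 genotype labels, a difference that was not tested. In 2i-MEFs, *Dnmt3a* KO against *Dnmt3b* KO had 0 of 4 such factors higher, where 5.52% of all genes were, and 1 lower, *Nfe2* at −1.20, where 3.49% were. The *Nfe2* values stand for at most 6 reads in *Dnmt3a* KO 2i-MEFs, and for between 3 and 31 in *Dnmt3b* KO 2i-MEFs. *Zfpm1* and *Gata2* were also lower in *Dnmt3a* KO 2i-MEFs, at −0.51 and −0.52.

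**Figure D5:**
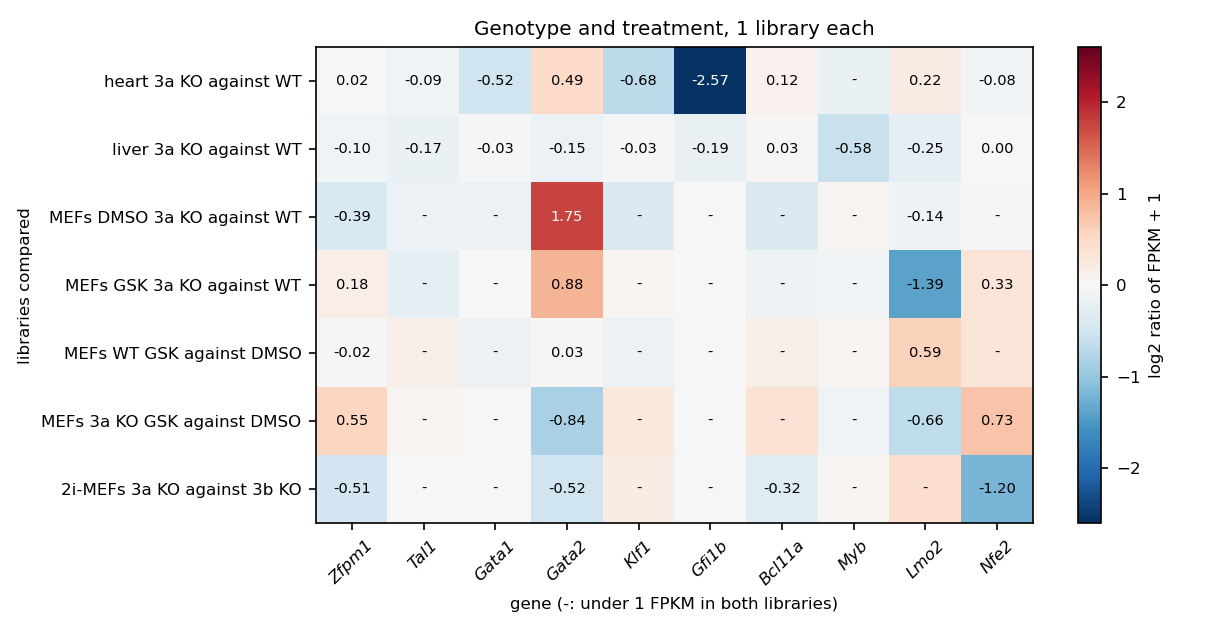
Log2 ratios of FPKM + 1 for the 10 factors in 7 comparisons of single libraries, with the value in each cell and a dash where both libraries were under 1 FPKM. Values past 2-fold are those of *Gfi1b* in heart (−2.57), *Gata2* in MEFs with DMSO (1.75), *Lmo2* in MEFs with GSK126 (−1.39) and *Nfe2* in 2i-MEFs (−1.20).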

How the data were processed

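RNA-seq was analysed in 10 libraries, and the 16 DNA methylation samples were not used here. After trimming with cutadapt 1.15, the authors mapped reads to mm10 on the GENCODE M15 annotation with TopHat2 and Bowtie2. They kept uniquely mapped reads and calculated FPKM with Cufflinks 2.2.1 (Bowtie2 2.2.5 and TopHat2 2.1.0 are among the versions in the submitters' processing notes). The deposited FPKM values form 1 table, without counts, and no scaling between libraries is stated. The kit keeps strand, but whether strand was used in quantification is not given in the sources used here. Gene starts, deposited in 0-based form, were raised by 1.

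Rows of 1 symbol were summed (155 rows repeat a symbol). Depth was estimated from 6540 genes with 1 transcript, whose low values are multiples of 1 read: 97.5% to 98.7% of values under 10 reads fell within 0.1 of a whole number. Reads are given for the shortest and the longest transcript of GENCODE M21 and, like this depth, cover counting error only.

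log2(FPKM + 1) was fitted with limma 3.58.1 (trend, R 4.3.3) over all 10 libraries with 1 mean per tissue, for genes with at least 1 FPKM in at least 2 libraries, and p-values were adjusted over 15643 genes. Comparisons of genotype or treatment have 1 library each and no test. The fit was also run on simulated data with known changes, and that outcome is not reported here. Alternatives were a pseudocount of 0.1, no filter, median centring, MEFs with DMSO only, a replicate block (liver against heart), leaving out each library and, for the levels of the 10 factors alone, the highest row where a symbol has several. Leaving out the 3 libraries whose *Dnmt3a* goes against the label was added after seeing the data. Promoters and their motifs came from RefSeq. A search for zinc fingers was planned and not run, since no protein table was used here. Tables were handled in Python 3.11.15 with pandas 2.3.3 and numpy 2.4.6.

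The 10 genes and all gene lists were chosen with earlier results of these data known. Named genes are the 10 factors, genes of the lists, and the gene nearest to each factor. The gene with the profile nearest to that of *Tal1* is not reported here.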

Additional observations from a re-analysis of the deposited data

Results flagged for a closer look

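Among the 4 MEF libraries, *Gata1* stood out in WT MEFs with DMSO, at 0.117 FPKM against 0 in the other 3, a gap larger than Dixon's 95% critical value. With the other 3 libraries tied at 0 any value above 0 passes it, and this value is at most 4 reads, so it is given as a level and not as a difference.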

How the results depend on the processing

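The 9 factors called higher in liver than in heart, and the 9 called higher in liver than in MEFs, were called under every alternative run for these comparisons in which they could be tested, which for *Myb* excluded leaving out either liver library, where it failed the filter. Leaving out 1 library gave 0 to 1 factors lower in liver than in heart, 0 to 1 lower than in MEFs, and 4 to 7 higher in heart than in MEFs. *Gfi1b* in heart against MEFs also lost its call without the filter (adjusted p = 0.0672), with DMSO MEFs only (0.101) and without any single MEF library (0.0525 to 0.0541). *Nfe2* lost it without the 3 libraries whose *Dnmt3a* goes against the label (1.35, adjusted p = 0.0791), and *Myb* gained one with a pseudocount of 0.1 (1.20, adjusted p = 0.0224). The cause was not tested.

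A pseudocount of 0.1 raised the number of genes counted as higher and lower, by its construction for low values: 600 and 508 in heart, 327 and 620 in liver, 961 and 572 in MEFs with DMSO, 680 and 741 in MEFs with GSK126, 523 and 432 for GSK126 in WT MEFs, 502 and 813 for GSK126 in MEFs labelled *Dnmt3a* KO, and 1187 and 757 in 2i-MEFs. Among the factors it added 1, *Nfe2*, higher with GSK126 in MEFs labelled *Dnmt3a* KO (1.43). With median centring, *Gata1*, *Klf1* and *Nfe2* in *Dnmt3a* KO liver changed from values just below 0 to 0.04, 0.04 and 0.07.

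The numbers 4 and 25 in the titles of heart and liver libraries may or may not name the same embryos. With them as a replicate block, 9 factors were higher and 0 lower in liver than in heart, with 2653 and 2912 genes called, and no call among the factors changed. Across genes, the ratios of the libraries labelled *Dnmt3a* KO to WT in heart and liver had r = −0.006.

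Each condition has 1 library, so genotype and treatment values have no error. Depth limits the levels below about 0.1 FPKM, where a value is a few reads, and levels listed at 0 are not shown to be absent.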
